A study of Danio rerio with 6 samples.

Results

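Maternal oocyte factors are genes whose RNA and protein the growing egg stores for its own meiosis and for the first divisions of the embryo. The 10 studied here were h1m, npm2a, npm2b, nanog, pou5f3, btg4, mos, wee2, gdf9 and bmp15, chosen by symbol. All 10 of 10 symbols were found among the 32268 genes of the snRNA-seq library and in both scRNA-seq libraries. The fish were of the casper strain, carried a BRAF V600E transgene under the mitfa promoter and lacked p53 and mitfa. Embryos were injected with mitfa-MITF and mitfa-GFP and grew to adults with GFP-positive melanomas, in which the mitfa promoter drives the transgenes in the pigment lineage. The melanoma and the tissue around it were dissected from 3 adult fish for nuclei, and nuclei sorted as GFP-positive or GFP-negative were tagged by fish and sort with 6 hashtags, pooled and read in 1 library. Cells of samples E and F came from fish of the same genotype and were also sorted by GFP. There was no untreated or tumor-free group, and the factors were compared between clusters of nuclei, depths, fish and sorts.

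In the oocyte, chromatin is packed with an oocyte-type linker histone and with nucleoplasmins, and meiosis is held and released by kinases that act on the Cdk1-cyclin B complex. The stored transcripts are later translated, used to start the genome of the embryo, and cleared. Oocytes also secrete growth factors of the TGF-beta family to the follicle cells around them.

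The nuclei library held 115656723 gene UMIs over 1632907 barcodes, and 13121 barcodes were kept as nuclei (at least 500 UMIs, at least 200 genes, at most 20% mitochondrial UMIs, 259 doublets removed). Clustering without the 10 factors gave 26 clusters, which were named by marker lists. Clusters 17, 19 and 24, with 305, 278 and 181 nuclei, took the name oocyte-like, since all 15 of 15 detected oocyte markers (zona pellucida genes, zar1, buc, figla, dazl, ca15b and org, none of them a member) were raised in each. The 764 oocyte-like nuclei were 5.82% of the nuclei and carried 60.8% of their UMIs. Their median depth was 62949 UMIs against 2005 UMIs in the other nuclei, and 436 of the 444 nuclei with at least 50000 UMIs were oocyte-like. The 12 further classes each passed their own lists, and 5 clusters stayed unnamed. In clusters 0, 3, 14 and 16 markers of a further cell type scored within 1 log2 unit of the best list or above it, where lists of dividing cells and of iridophores, pigment cells akin to the tumor, were not set against a name. The tumor-like cluster thus scored 4.34 on the tumor and 4.10 on the iridophore list, as mean log2 ratios of the markers to their median over clusters. Oocyte-like cluster 17 scored 3.82 on the oocyte and 2.98 on the dividing cell list, so its name also rests on this exception. Cluster 5 passed the neutrophil list, but immunoglobulin genes and the B cell gene POU2AF1 outnumbered neutrophil markers among its 10 leading genes. The nuclei library shared 5 cell barcodes with sample E and 1 with sample F, and E and F shared 0. Levels are given as UMIs per 1000000 gene UMIs (CPM) with exact Poisson 95% intervals, which cover counting error only. CPM of 3′ UMIs were not divided by gene length, so each gene is compared with itself across groups.

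The 10 factors together were at 8461 CPM (8439 to 8484) in oocyte-like nuclei and at 478 CPM (472 to 485) in the other 12357 nuclei. Of the 543634 UMIs of the factors in nuclei, 524501, or 96.5%, lay in oocyte-like nuclei, and for single members this share ran from 95.3% (wee2) to 96.8% (h1m). All 10 members were at least 2 times higher in oocyte-like than in other nuclei, on the log2(CPM + 1) scale, where 32.8% of the 16380 genes with at least 200 UMIs were. The limit of 200 UMIs was set on all nuclei together, so a gene could pass it through 1 of the groups only. At least 16 times higher were h1m, btg4 and mos, 3 of 10 members, against 0.385% of all genes. The median log2 ratio of the 10 members was 3.81, and that of all genes tested was -0.44. The 3 clusters were found from other genes of the same nuclei, so these ratios describe the class and carry no test.

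Among the chromatin proteins, h1m (ENSDARG00000102892), the maternal linker histone, was at 4447 CPM in oocyte-like nuclei, where only 12 genes had more UMIs. It was at 230 CPM in other nuclei and at 1884 CPM in free RNA. Free RNA is the name used here for the barcodes of 1 to 50 UMIs (median 1 UMI), taken to hold no nucleus. The source of their UMIs was not tested. All 764 oocyte-like nuclei held an h1m UMI, with a median of 249 and a highest value of 2866. npm2b (ENSDARG00000053963) and npm2a (ENSDARG00000076391) encode nucleoplasmins, the histone chaperones of the egg that in frog and mouse remodel sperm chromatin. npm2b was at 947 CPM in oocyte-like nuclei, 59.8 CPM in other nuclei and 468 CPM in free RNA. npm2a was at 133, 9.92 and 77.8 CPM in the same groups. At least 1 UMI was seen for npm2b in 99.3% and for npm2a in 90.1% of the oocyte-like nuclei. Of 7 measured genes on a list of their kin (chaperones and linker histones), 3 were at least 2 times higher and 3 at least 2 times lower in oocyte-like nuclei. Of all genes tested 32.8% were at least 2 times higher. The share of all genes at least 2 times lower is not given here, for this or the other lists. The median log2 ratio of the list was -0.54, near the -0.44 of all genes. The higher genes of the list were nasp (969 against 75.1 CPM), which encodes a chaperone of histones, npm1a (431 against 96.3 CPM) and npm3 (217 against 32.2 CPM). Among the lower ones were the linker histone genes h1fx (7.20 against 140 CPM) and h1f0 (1.77 against 49.8 CPM).

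The embryo's pluripotency-type transcription factors nanog (ENSDARG00000075113) and pou5f3 (ENSDARG00000044774), which in zebrafish are stored in the egg and start zygotic transcription, were both present as RNA in oocyte-like nuclei. nanog was at 413 CPM there, at 28.9 CPM in other nuclei and at 205 CPM in free RNA. pou5f3 was at 142, 9.05 and 66.8 CPM. A nanog UMI was seen in 97.8% and a pou5f3 UMI in 89.8% of the oocyte-like nuclei. The other genes of embryo genome activation were mostly low: 4 of 10 on the list passed 200 UMIs, of which sox19b (60.4 against 5.35 CPM in other nuclei), foxh1 (46.6 against 3.62 CPM) and eomesa (40.3 against 2.67 CPM) were higher in oocyte-like nuclei, and klf4 was lower. The median log2 ratio of these 4 was 3.32, against -0.44 for all genes, of which 32.8% were at least 2 times higher. foxh1 (145 UMIs in other nuclei) and eomesa (107 UMIs) passed the limit only through oocyte-like nuclei, and klf4 (37 UMIs in oocyte-like nuclei) only through other nuclei. The count and the median of these genes thus depend on the limit and are no result about the list.

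btg4 (ENSDARG00000035171) encodes an adaptor that in mouse brings the CCR4-NOT deadenylase to maternal mRNA for its clearance. It was at 1033 CPM in oocyte-like nuclei, 54.6 CPM in other nuclei and 427 CPM in free RNA. Of 12 genes of the deadenylation list 4 were at least 2 times higher and 2 at least 2 times lower, with a median log2 ratio of 0.48. The share at least 2 times higher was near the 32.8% of all genes. cnot6a (189 against 42.3 CPM) and cnot8 (87.0 against 14.4 CPM), which encode deadenylases, and btg2 (210 against 74.5 CPM), a relative of btg4, were among the higher. tob1a, of the same family, was at 96.0 and 92.3 CPM, and btg1 was at 10.4 CPM in oocyte-like and 266 CPM in other nuclei.

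mos (ENSDARG00000069744) is the kinase that in frog and mouse holds the egg in metaphase II, and wee2 (ENSDARG00000012718) encodes the oocyte Wee1-type kinase that in mouse keeps Cdk1 inactive during prophase arrest. mos was at 915 CPM in oocyte-like nuclei, 54.9 CPM in other nuclei and 398 CPM in free RNA. wee2 was at 268, 20.5 and 136 CPM. Of 14 genes of their pathway 8 were at least 2 times higher, against 32.8% of all genes, and 3 were at least 2 times lower. The median log2 ratio of the pathway genes was 1.95. The highest were ccnb1 (1633 against 104 CPM), ccnb2 (993 against 59.7 CPM) and cdc20 (500 against 39.3 CPM), the B-type cyclins and the activator of the complex that degrades them.

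The secreted ligands gdf9 (ENSDARG00000003229) and bmp15 (ENSDARG00000037491) signal from the oocyte to follicle cells. bmp15 was at 134 CPM in oocyte-like nuclei, 8.92 CPM in other nuclei and 67.9 CPM in free RNA. gdf9 had the fewest UMIs of the 10, with 2106 in the whole library, and was at 30.1, 1.95 and 13.1 CPM. A gdf9 UMI was seen in 70.4% of the oocyte-like nuclei and a bmp15 UMI in 91.9%. Of 16 measured genes among kin and receptors of the family, 3 were at least 2 times higher in oocyte-like nuclei, against 32.8% of all genes. Among the 3 were gdf3 (298 against 17.8 CPM), another maternal ligand, and smad5 (112 against 34.6 CPM). smad2, which carries the signal of the activin branch, was at 134 and 79.6 CPM. The type II receptor gene bmpr2b was at 2.097 CPM in oocyte-like and 173 CPM in other nuclei, and 8 of the 16 were at least 2 times lower. The share of all genes at least 2 times lower is not given here, so the count of lower genes has nothing to be set against. The median log2 ratio of the list was -1.54, against -0.44 for all genes.

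Of 36 measured genes on a wider list of oocyte and maternal genes, 35 were at least 2 times higher in oocyte-like nuclei, against 32.8% of all genes. The median log2 ratio of this list was 3.67. The list includes the 15 oocyte markers by which the clusters were named. Their higher level followed from that naming, also for the zona pellucida genes named below. The highest by level were zp3.2 (11774 CPM), cldnd (5963 CPM) and zp2.5 (3067 CPM), and the only one of these 36 below other nuclei was ybx1 (415 against 730 CPM). The 5 genes whose log2(CPM + 1) across the 26 clusters was most like the mean of the members were siva1, si:dkey-241l7.6, zp2.5, cldng and zp2.3, with Pearson's r between 0.995 and 0.996. These values describe 26 clusters of 1 library with unequal depths. Each member correlated with the mean of the other 9 at r between 0.865 (gdf9) and 0.993 (h1m). The ovarian follicle list was at 1.52 CPM in oocyte-like and 21.9 CPM in other nuclei. All 3 of its measured genes were at least 2 times lower, but they passed the limit of 200 UMIs mostly through other nuclei. The share of all genes this much lower is not given here, so the count is no result about the list. The male germ cell list summed to 7.76 and 13.0 CPM. Its only gene with at least 200 UMIs, spata18, was at 3.259 CPM in oocyte-like and 1.0999 CPM in other nuclei. It passed that limit only through oocyte-like nuclei (202 UMIs, against 44 in other nuclei), so its higher level is no result about the list. The tumor list, whose sum includes the transgenes, was at 46.8 CPM in oocyte-like nuclei against 4719 CPM in tumor-like nuclei. On the dividing cell list 6 of 7 genes were at least 2 times higher in oocyte-like nuclei, against 32.8% of all genes. This list summed to 1209 CPM there and to 172 CPM in other nuclei. Of the somatic lists, 2 single markers stood out: ctss2.1 of the macrophage list was at 1893 CPM and epcam of the keratinocyte list at 1553 CPM in oocyte-like nuclei, against 128 and 133 CPM in other nuclei.

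**Figure D1:**
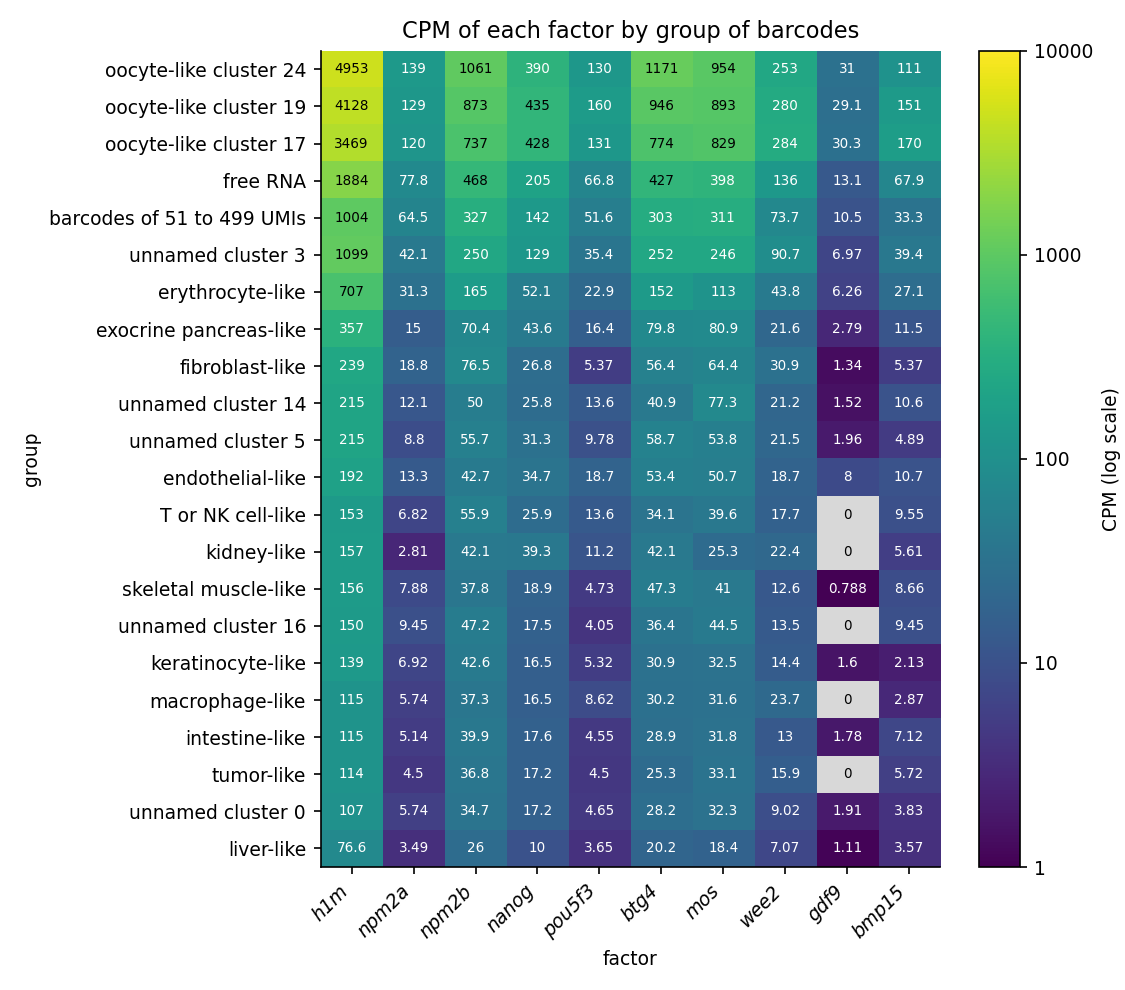
CPM of each factor (columns) in the oocyte-like clusters, in barcodes below the nucleus threshold and in the other classes and unnamed clusters (rows, ordered by the sum of the 10 factors), with colour on a log scale and grey for 0 UMIs. Every factor is highest in the 3 oocyte-like clusters; for h1m these are at 3469 to 4953 CPM, free RNA is at 1884 CPM and liver-like nuclei are at 76.6 CPM.

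The factors were not limited to oocyte-like nuclei. Their sum in the 12 other named classes ran from 170 CPM (163 to 178) in liver-like nuclei to 1320 CPM (1219 to 1427) in erythrocyte-like nuclei, with a median of 342 CPM. The liver-like class pools several clusters, whose sums ran from 110 CPM (cluster 20) to 404 CPM (cluster 23). After erythrocyte-like came exocrine pancreas-like nuclei at 699 CPM (668 to 730). Fibroblast-like (525 CPM, 474 to 579) and endothelial-like nuclei (443 CPM, 378 to 516) had overlapping intervals. So had T or NK cell-like (356 CPM), kidney-like (348 CPM) and skeletal muscle-like nuclei (336 CPM). Keratinocyte-like (292 CPM), macrophage-like (271 CPM), intestine-like (265 CPM) and tumor-like nuclei (257 CPM, 237 to 278) formed the next overlapping group. The sum in oocyte-like nuclei was 6.41 times that in the highest of these classes.

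A few nuclei carried much of the highest values. In the erythrocyte-like class 5 of 224 nuclei held 20 or more UMIs of the factors and 1 of them held 223, and the rest of the class was at 404 CPM. In the exocrine pancreas-like class 27 of 417 nuclei held 20 or more, and the rest was at 318 CPM. The limit of 20 UMIs was chosen after the values were seen. Of the unnamed clusters, cluster 3 (851 nuclei) was at 2191 CPM, above every named class but the oocyte-like one. Markers of skeletal muscle, exocrine pancreas and oocytes were raised in it together, and 72.2% of its nuclei held a UMI of the factors. Without this cluster the other nuclei were at 302 CPM (297 to 308). Cluster 16, in which 6 of 6 detected ovarian follicle markers and also nervous system markers were raised, was at 332 CPM (292 to 376), and cluster 5 was at 461 CPM (421 to 505), both within the range of the somatic classes.

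Free RNA held the factors at 3744 CPM (3672 to 3817), which was 44.2% of the level in oocyte-like nuclei and 7.83 times that in the other nuclei. All 10 members were at least 2 times higher in free RNA than in other nuclei, where 22.4% of genes were, and 1 of 10 (h1m) was at least 8 times higher, where 0.464% were. The excess over other nuclei ranged from 6.62 times for wee2 to 8.21 times for h1m. The level in the somatic classes was between 4.55% and 35.3% of that in free RNA. With every nucleus thinned to 500 UMIs, 97.8% of oocyte-like nuclei (median depth 62949 UMIs) and 8.98% of liver-like nuclei (median depth 2887 UMIs) would show a UMI of any of the factors. The unthinned shares were 100% and 38.6%. In tumor-like nuclei (median depth 2287 UMIs) the thinned share was 11.99%. Whether nuclei outside the oocyte-like class transcribe the factors was not tested.

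**Figure D2:**
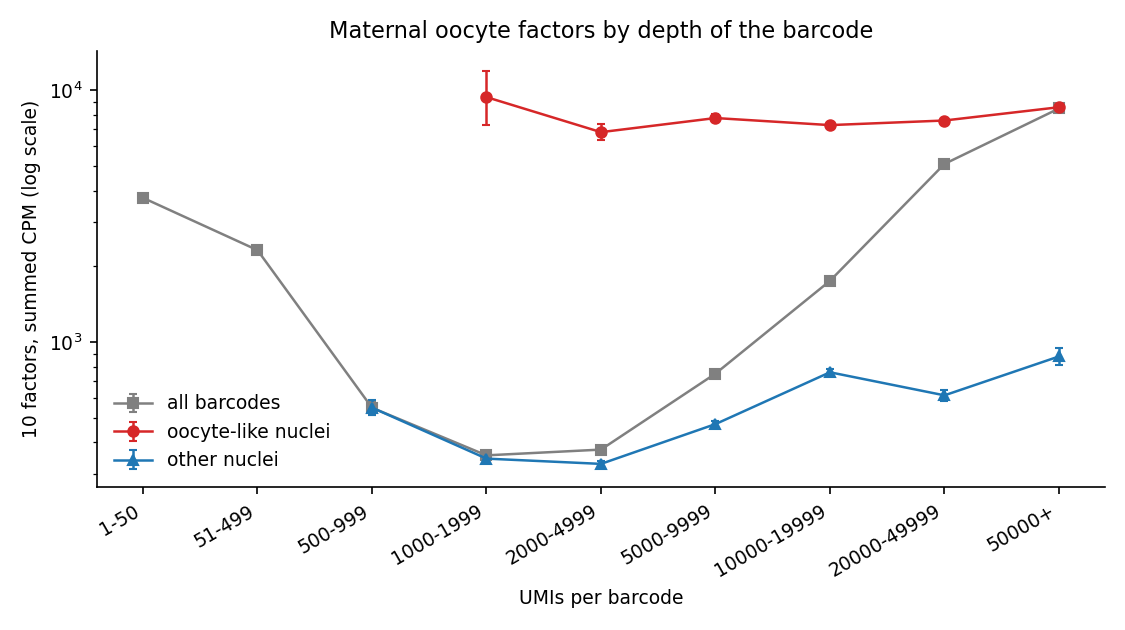
Summed CPM of the 10 factors (log scale, exact Poisson 95% intervals) by the number of UMIs per barcode, for all barcodes, oocyte-like nuclei and other nuclei. All barcodes together fall from 3744 CPM at 1 to 50 UMIs to 355 CPM from 1000 to under 2000 UMIs and rise to 8473 CPM at 50000 UMIs or more, while oocyte-like nuclei stay between 6825 and 9403 CPM.

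Across depth the sum followed a U shape. It was 3744 CPM at 1 to 50 UMIs, 2320 CPM from 51 to under 500, 549 CPM from 500 to under 1000, and lowest at 355 CPM from 1000 to under 2000 UMIs. From there it rose over 375, 750, 1753 and 5104 CPM to 8473 CPM in barcodes of at least 50000 UMIs. Called nuclei of at least 50000 UMIs were 15.4 times (14.4 to 16.5) as high as those under 1000 UMIs. Without the oocyte-like clusters the ratio was 1.597, from only 8 nuclei above 50000 UMIs. Within oocyte-like nuclei the sum ran from 6825 CPM (6336 to 7342) in the 30 nuclei from 2000 to under 5000 UMIs to 8573 CPM (8549 to 8598) in the 436 above 50000 UMIs, and was 9403 CPM (7257 to 11984) in the 5 shallowest.

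The proportions of the members were close but not equal in free RNA, in oocyte-like nuclei and in the others. h1m made up 50.3% (49.4 to 51.3, exact binomial) of the UMIs of the 10 factors in free RNA, 52.6% (52.4 to 52.7) in oocyte-like nuclei and 48.0% (47.3 to 48.7) in other nuclei. Over the 12 somatic classes its share ran from 42.3% to 53.6%, and 7 of 12 intervals held the free RNA value while 3 held the oocyte-like one. Such tallies also depend on the factors' UMIs per class, from 124 in kidney-like to 2143 in liver-like nuclei. The intervals take each UMI as independent, although some classes had many UMIs in a few nuclei. For btg4 the shares were 11.4% in free RNA, 12.2% in oocyte-like and 11.4% in other nuclei, and all 12 intervals held both reference values. The same was true of mos (10.6%, 10.8% and 11.5%). nanog took 5.48%, 4.88% and 6.05%, npm2b 12.5%, 11.2% and 12.5%, and pou5f3 1.78%, 1.68% and 1.89%. wee2 took 3.63%, 3.16% (3.12 to 3.21) and 4.29% (4.01 to 4.59), the largest relative gap between oocyte-like and other nuclei, and reached 8.73% (6.09 to 12.04) in macrophage-like nuclei. The largest relative gap between oocyte-like nuclei and free RNA was that of npm2a, with 1.57% and 2.08%. Barcodes from 51 to under 500 UMIs stood slightly apart, with h1m at 43.3% (42.5 to 44.0).

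**Figure D3:**
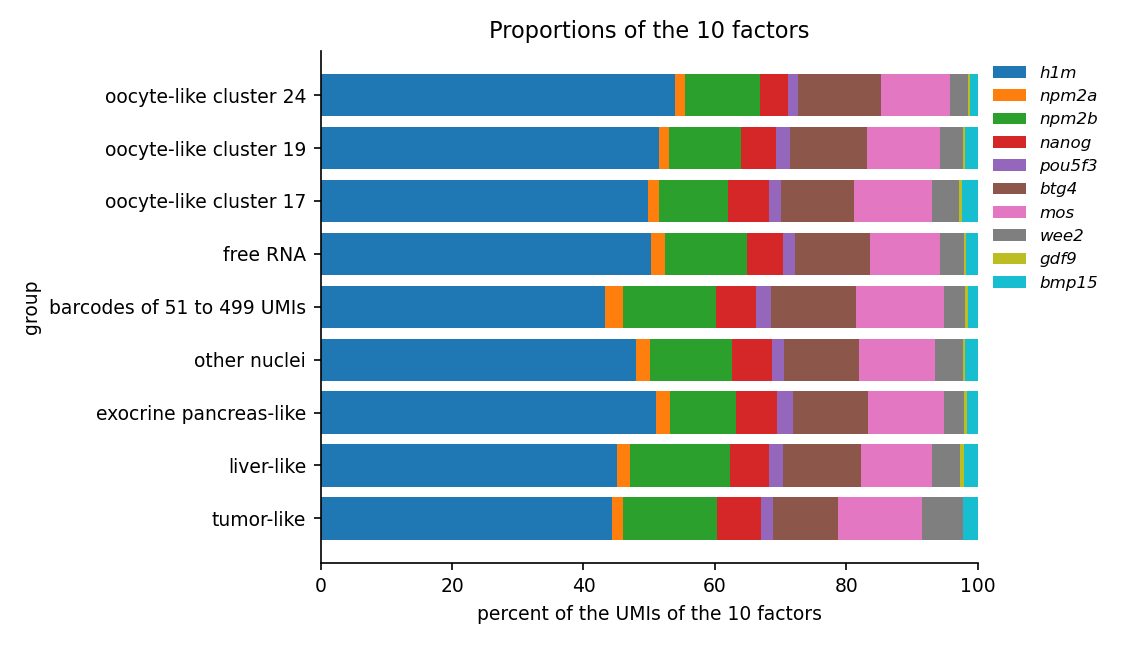
Share of each factor among the UMIs of the 10 factors (bars from 0 to 100%) in the oocyte-like clusters, free RNA, barcodes from 51 to under 500 UMIs, all other nuclei and 3 somatic classes. h1m takes 43.3% to 53.9% in every bar, and the order of the large shares is similar in all of them.

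Of the 764 oocyte-like nuclei 510 held at least 1 UMI of all 10 factors, or 66.8%, while 226 had no gdf9, 78 no pou5f3 and 76 no npm2a UMI. In cluster 24, the deepest, this was 93.4%. Over the 584 oocyte-like nuclei of at least 20000 UMIs, the sum of the factors per 10000 UMIs had a median of 82.2, with the 10th and 90th percentiles at 66.5 and 100.1. h1m had a median of 43.1 per 10000 UMIs (31.5 to 55.2) and a coefficient of variation of 0.25, against 0.06 from counting alone. For gdf9 the observed and counting values were 0.79 and 0.73, and for npm2a 0.40 and 0.35. The gap between them was largest for pou5f3, at 0.82 against 0.33. Its median was 1.196 per 10000 UMIs, its 90th percentile 2.37, its 99th percentile 6.91 and its highest value 11.0. nanog, the other transcription factor, had a coefficient of variation of 0.24 against 0.19.

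Across these 584 nuclei of 1 library, Pearson's r of log2(CPM + 1) over the 45 pairs of members ran from -0.28 to 0.77, with a median of 0.03. The highest were h1m with npm2b (0.77), h1m with btg4 (0.51) and npm2b with btg4 (0.42). The lowest were npm2b with nanog (-0.28), h1m with wee2 (-0.27) and h1m with bmp15 (-0.27). All values share the total UMIs of the nucleus in the denominator, and the nuclei are pooled over fish and clusters whose levels differ. Counting error, which made up most of the spread of gdf9 and npm2a, also draws r toward 0. The median r thus says little on whether the members vary together. Within clusters 17, 19 and 24, h1m with npm2b was at 0.72, 0.71 and 0.72, and within fish 1 and 2 at 0.84 and 0.72. h1m with wee2 was at -0.17, -0.26 and -0.34 in the clusters and at -0.25 and -0.18 in the fish. h1m with bmp15 was at 0.03, -0.02 and -0.34 in the clusters, so its negative value was not seen in every cluster. In fish 1 and 2 this pair was at -0.16 and -0.29. npm2b with nanog was at -0.14, -0.28 and -0.30 in the clusters and at -0.09 and -0.33 in the fish.

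The clusters differed in level. In order of median depth (18050, 83583 and 143487 UMIs for clusters 17, 19 and 24), the sum of the factors was at 6972, 8024 and 9193 CPM, h1m was at 3469, 4128 and 4953 CPM, npm2b at 737, 873 and 1061 CPM, and btg4 at 774, 946 and 1171 CPM. bmp15 ran the other way, at 170, 151 and 111 CPM. In cluster 24 against cluster 17, the sum was 1.32, 1.32 and 1.29 times as high in fish 1, 2 and 3. h1m was 1.46, 1.45 and 1.44 times as high in fish 1, 2 and 3, btg4 1.61, 1.49 and 1.33 times, and npm2b 1.44, 1.42 and 1.25 times. bmp15 was at 0.781, 0.573 and 0.633 times. mos was 1.13, 1.16 and 1.06 times as high. nanog was above 1 in fish 1 only (1.11, 0.842 and 0.945 times) and pou5f3 was close to 1 in all (0.956, 0.933 and 0.933 times). Fish 3 had 8, 5 and 2 nuclei in the 3 clusters, so its values are the least precise.

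**Figure D4:**
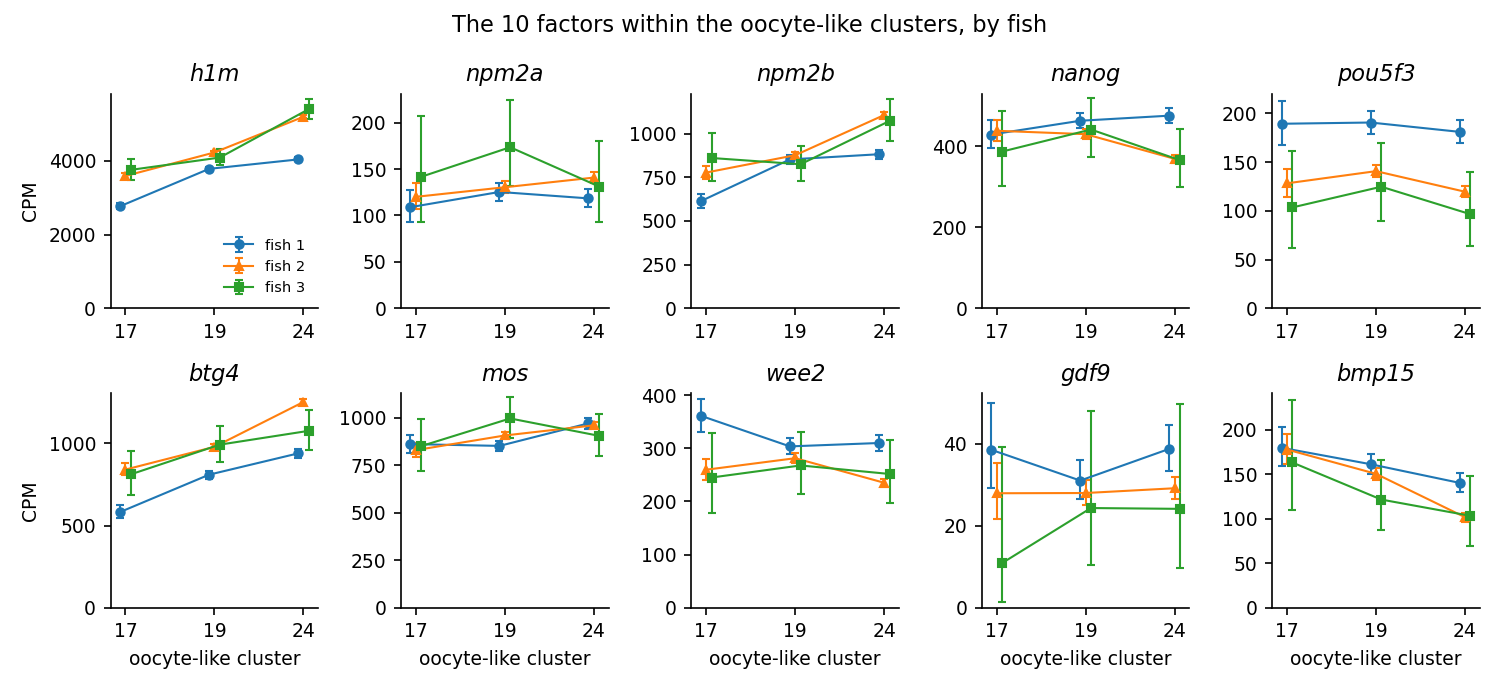
CPM of each factor (vertical axes from 0) in oocyte-like clusters 17, 19 and 24 by fish, with exact Poisson 95% intervals for counting error. h1m, npm2b and btg4 are higher and bmp15 is lower in cluster 24 than in cluster 17 in each of the 3 fish, and pou5f3 of fish 1 (181 to 191 CPM) lies above that of fish 2 and 3.

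The fish contributed unequally. By hashtag, 323 oocyte-like nuclei came from fish 2, 128 from fish 1 and 15 from fish 3, while 177 carried no hashtag above its threshold and 121 carried several. They were 11.6% of the tagged nuclei of fish 2, 3.65% of fish 1 and 0.459% of fish 3. Fish 2 thus gave 73.3% of the factors' UMIs in oocyte-like nuclei of a known fish. The level within the class was similar, with a sum of 7611, 8759 and 8388 CPM in fish 1, 2 and 3, or 8253 ± 586 CPM (SD, n = 3 fish). In the other nuclei the sum was 290, 743 and 215 CPM in the same fish, and fish 2, with the most oocyte-like nuclei, was highest there also. Without cluster 3 these values were 208, 428 and 201 CPM, and in cluster 3 itself they were 1291, 2805 and 544 CPM.

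Members differed between fish within the oocyte-like class. pou5f3 was at 187 CPM (179 to 194) in fish 1, 129 CPM (125 to 133) in fish 2 and 110 CPM (88.0 to 135) in fish 3. Fish 1 was 1.48, 1.35 and 1.51 times as high as fish 2 in clusters 17, 19 and 24. wee2 was likewise higher in fish 1, at 313, 256 and 257 CPM. h1m was lower in fish 1, at 3766, 4667 and 4492 CPM, and so was btg4, at 835, 1105 and 981 CPM. Each fish is 1 sample in 1 pooled library, and these gaps have no replicate check.

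By hashtag, oocyte-like nuclei were found in both sorts of every fish. Whether some nuclei took a wrong hashtag was not tested, which matters most where the counts are small. They were 6.56% of the GFP-positive and 0.365% of the GFP-negative nuclei of fish 1 (122 of 1860 and 6 of 1646). In fish 2 they were 20.4% and 2.23% (293 of 1435 and 30 of 1346), and in fish 3 0.711% and 0.371% (6 of 844 and 9 of 2424). The share was higher in GFP-positive nuclei in 3 of 3 fish, with exact binomial intervals that overlapped in fish 3 only. These intervals cover the counting of nuclei only, and each sort of each fish is 1 sample. EGFP itself was at 1.81 CPM in oocyte-like nuclei and at 85.8 CPM in other nuclei, and human BRAF was at 9.82 and 310 CPM.

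To compare the sorts, UMIs of singly tagged nuclei were summed per hashtag, which gave 3 sums for each sort, and fitted with edgeR over all genes. h1m was at 2955, 5691 and 334 TMM-scaled CPM in the GFP-positive sums of fish 1, 2 and 3 and at 332, 1196 and 472 CPM in the GFP-negative ones. The groups overlapped, and fish 3 had the lowest GFP-positive sum. The log2 ratio was 2.17 with a standard error of 0.99 (edgeR quasi-likelihood test, adjusted p = 0.165, n = 3). Here and after ± below, the standard error is the log2 ratio divided by the square root of the test's F statistic. nanog was at 368, 488 and 40.1 CPM in GFP-positive and 39.6, 130 and 42.6 CPM in GFP-negative sums (log2 ratio 2.08 ± 0.92, edgeR adjusted p = 0.163). pou5f3 was at 150, 158 and 14.4 against 9.45, 38.3 and 12.6 CPM (log2 ratio 2.42 ± 0.93, edgeR adjusted p = 0.161). All 10 members had ratios above 0, between 2.06 (npm2b) and 2.53 (gdf9). None of the 10 passed the threshold, and 0 of 17508 genes did (0% called higher), while 5410 genes and 5 members had an unadjusted p under 0.05.

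**Figure D5:**
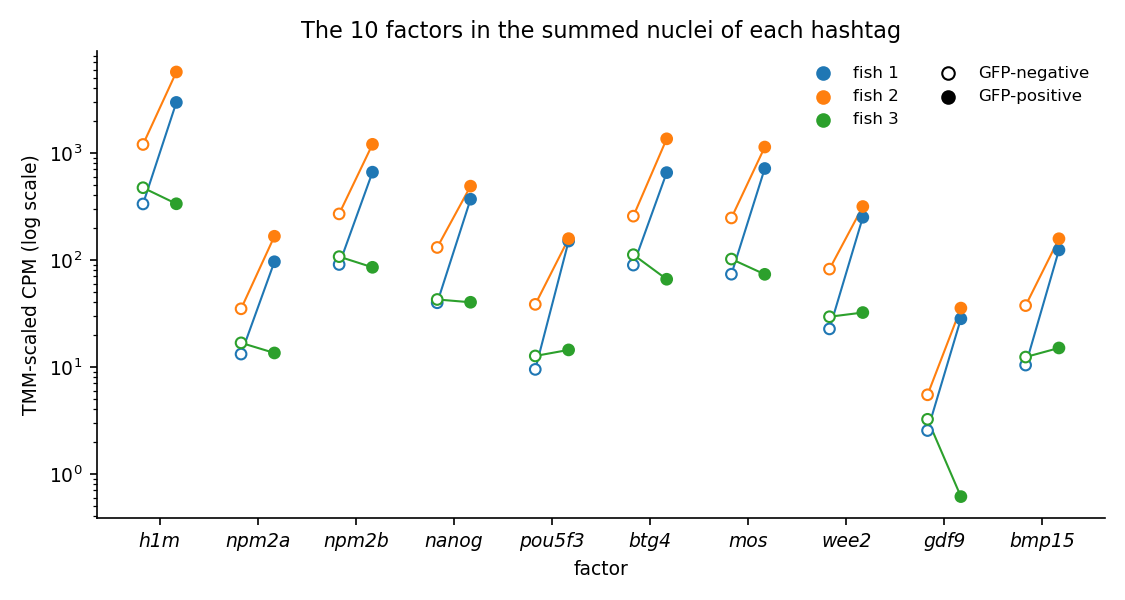
TMM-scaled CPM (log scale) of each factor in nuclei summed per hashtag, with open points for GFP-negative and filled points for GFP-positive nuclei and a line joining the 2 sums of each fish. The lines rise for all 10 factors in fish 1 and 2, and in fish 3 they are nearly flat or fall, as for h1m from 472 to 334 CPM.

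The call depended on the fit. DESeq2 called all 10 members higher in GFP-positive nuclei (adjusted p between 0.043 and 0.045), where it called 13.1% of all genes higher. With the fish as a block, which the shared animal justifies, edgeR called 0 of 10 members (adjusted p between 0.059 and 0.109) and 0.754% of genes higher. The ratios within fish 1 and 2 were between 1.90 and 3.98 on the log2 scale, and those within fish 3 were between -2.40 and 0.28. In the sums without oocyte-like nuclei, in which gdf9 was too low to test, edgeR called 0 of 9 members (1.54% of genes higher). With the fish as a block, a fit added after the data were seen, it called 7 of 9 (16.2% of genes higher): h1m, npm2b, nanog, pou5f3, mos, wee2 and bmp15, at log2 ratios between 0.97 and 1.45. In those sums the ratios of all 9 members tested were above 0.

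In the scRNA-seq libraries the factors were nearly absent. Sample E (1780 cells, 33172725 UMIs) held 260 UMIs of the 10 factors, or 7.84 CPM (6.91 to 8.85). Sample F (1002 cells, 14280302 UMIs) held 341, or 23.9 CPM (21.4 to 26.6). No cluster was oocyte-like. h1m, the most counted factor of the nuclei, had 1 UMI in E and 1 in F, or 0.0301 and 0.0700 CPM. btg4 had 2 UMIs in E and 0 in F, where 3 counts would be 0.210 CPM. Of the 15 oocyte markers, zp2.5, zp3a.1 and ca15b had 0 UMIs in both samples, and 10 had between 0 and 15 in each. The others were org, with 0 UMIs in E and 152 in F, and dazl, with 24 and 388.

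The proportions of the factors in the cells differed from those in the nuclei. mos made up 60.8% of the factors' UMIs in E (158 UMIs) and 54.3% in F (185 UMIs), and wee2 31.9% and 16.4%. Both kinases were spread over named classes and unnamed clusters, with mos in 8 of 10 groups of cells in either sample and wee2 in 6 of E and 8 of F. In F the groups with wee2 include male germ cell-like cells (1 UMI) and an unnamed cluster described below (23 of 56 UMIs). mos was at 14.8 CPM (11.5 to 18.7) in erythrocyte-like cells of E, where 1 cell held 14 of 69 UMIs, and at 3.61 CPM (2.63 to 4.83) in tumor-like cells. In F it was at 27.5 CPM (19.5 to 37.6) in macrophage-like cells and 10.3 CPM (8.23 to 12.8) in tumor-like cells. The 14 erythrocyte-like cells of F had mos at 24.2 CPM (10.4 to 47.7). The same unnamed cluster had mos at 32.6 CPM (22.5 to 45.5) in F. wee2 was at 23.4 CPM (15.1 to 34.6) in macrophage-like cells of E and at 0.481 CPM (0.177 to 1.05) in tumor-like cells. Neutrophil-like cells of E were at 17.8 CPM (12.5 to 24.5) for wee2, an interval that overlapped that of macrophage-like cells. In F wee2 was at 2.11 CPM in macrophage-like and 3.45 CPM in neutrophil-like cells. The neutrophil-like class pools several clusters of cells, whose mix differed between the samples. They held 33, 54 and 50 cells in E and 101, 26 and 29 cells in F. gdf9 had 10 UMIs in E and 16 in F, of which 7 and 13 lay in tumor-like cells.

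Most UMIs of npm2a, npm2b, nanog, pou5f3 and bmp15 in sample F lay in 2 small groups of cells. Male germ cell-like cells, 19 in F, in which all 9 markers of that list were raised, held 10 of the 11 npm2a UMIs and 13 of the 19 npm2b UMIs of F. npm2a was at 88.7 CPM (42.5 to 163) and npm2b at 115 CPM (61.4 to 197) in them, with a npm2b UMI in 8 of 19 cells, while mos, nanog, pou5f3, btg4, bmp15 and h1m had 0 UMIs there. The 4 such cells of E held 1 UMI each of npm2a and npm2b and both btg4 UMIs of that sample.

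The other group was an unnamed cluster led by prss59.1, a digestive protease gene of the exocrine pancreas, and ddx4, a germ line helicase gene. It held 61 cells of F and 152 of E. In F, 38 of its cells had a ddx4 UMI, with a median of 12 and 1088 in all, and also 367 UMIs of dazl, another germ line gene. They held 5967 UMIs of the exocrine pancreas list, with a median of 0 per cell, and which cell type they are was not settled. All 61 cells of F in the cluster together were at 511 CPM of the oocyte list, against 42.4 CPM in all cells of F. For the male germ cell list the values were 615 and 115 CPM. These 38 cells held 26 of the 27 nanog UMIs of sample F, 15 of 19 bmp15, 6 of 7 pou5f3, 20 of 56 wee2 and 5 of 19 npm2b UMIs. The 23 cells of F in the cluster without ddx4 and the 152 cells of E, none with ddx4, held 0 nanog, pou5f3 and npm2b UMIs, and 2 bmp15 UMIs in each set. h1m had 1 UMI and btg4 0 in the ddx4-positive cells. In oocyte-like nuclei, by contrast, h1m had 10.8 times as many UMIs as nanog. The split by ddx4 was chosen after the values were seen, and a member had at most 8 UMIs in any cell of this cluster.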

How the data were processed

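The values are UMI counts: the authors deposited, without normalization, a count of each gene and hashtag in every barcode of the nuclei, and for cells those of the barcodes that Cell Ranger kept. The submitters' processing notes name Cell Ranger 3.1.0 for cells and 5.0.1 for nuclei and the zebrafish build GRCz10, and the features hold human BRAF and EGFP as added genes. SRT sections were not used here. Whether intronic reads were counted is not given in the sources used here.

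Nuclei of at least 500 UMIs and 200 genes were clustered in Seurat 5.3.0 after sctransform 0.4.2 (3000 features less the members, 15 principal components, resolution 0.8), once those marked as doublets by scrublet, run through scanpy 1.11.5, had been dropped. In cells the limits were 200 genes and 20% mitochondrial UMIs, and no doublet was taken out. Each cluster was scored on every marker list by the mean log2 ratio of its genes to their median over clusters, and took the best list (mean at least 1, at least 3 markers and 50% of the list raised at least 2 times, a marker among the 200 leading genes, or 10 at low depth). It stayed unnamed where a further list, other than dividing cell or iridophore, came within 1 log2 unit, where a germ line gene led a somatic cluster, or where B cell genes outnumbered its own markers among the 10 leading genes. These conditions were added after the clusters were seen. A nucleus took a hashtag above 2 times its median. CPM are UMIs per 1000000 gene UMIs, with exact Poisson or binomial intervals at 95%.

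GFP-positive and GFP-negative sums were compared with edgeR 4.0.16 (quasi-likelihood, TMM, filterByExpr, Benjamini-Hochberg at 0.05) and, as an alternative, DESeq2 1.42.0, in R 4.3.3. The fit was tested on simulated data with a small spread between sums and with the spread of these data. In the second case far fewer of the changed genes were called. A lack of calls is thus no evidence that the sorts are equal. Sums of 1 fish share the animal, and their deviations from the group means correlated at 0.40, 0.65 and 0.44 over 17508 genes in fish 1, 2 and 3. The GFP p-values of the fits without a block take the sums of 1 fish as independent. Those with the fish as a block measure the spread of the differences within the 3 fish.

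The members and lists were chosen with earlier results of these data known. Named genes were all members, the 5 most alike across clusters, markers of oocyte, follicle and male germ cells, and up to 3 genes per pathway list with the highest CPM in oocyte-like nuclei. Others were chosen after their values were seen: klf4, cnot8, btg1, h1f0, h1fx, bmpr2b, ybx1, ctss2.1, epcam, POU2AF1, EGFP, human BRAF, ddx4 and prss59.1. Alternatives covered depth limits, doublets, clustering, the range of free RNA, hashtags, single fish and the test.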

Additional observations from a re-analysis of the deposited data

How the results depend on the processing

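The sum of the factors in oocyte-like nuclei moved by less than 1 SD between fish under every clustering, depth, doublet, mitochondrial and scaling alternative, and was between 8174 and 8662 CPM without each fish in turn. The number of oocyte-like nuclei ran from 640 (log-normalized counts) to 847 (at most 10% mitochondrial UMIs). In free RNA the sum was 3858 CPM for barcodes of 1 to 10 UMIs and 3305 CPM for 1 to 100. The depth ratio was 1.597 without the oocyte-like clusters. Fish 2 gave 81.2% of the factors' UMIs when the highest hashtag had to be 3 times the next. Between the sorts, 10 members and 3519 genes were called by DESeq2, and 1430 genes, none of them a member, with the fish as a replicate block. Without the oocyte-like clusters 304 genes were called, and with the replicate block added 7 members and 5035 genes. Leaving out a fish gave 0 calls each time. Other nuclei without cluster 3 were at 302 CPM. The cause of these differences was not tested. Nuclei are 1 library, so values between classes have no library replicate. In the setting of at least 1000 UMIs the doublet caller marked only 2 nuclei and had not worked.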
